A study of Mus musculus with 14 samples.

Results

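The comparison covered here is that of brainstem tumors in which floxed *Ezh2* was exposed to Cre (EZH2 LOF, loss of function) against tumors that kept *Ezh2* (EZH2 WT). Its members were taken by sample label, 4 EZH2 LOF tumors (replicates 13 to 16) and 3 EZH2 WT tumors (replicates 1 to 3), 7 of the 14 samples in the series. Both groups were diffuse gliomas of the pons in C57BL/6 mice of the Nestin-Tv-a line, in which the *Nestin* promoter drives the receptor for RCAS viruses, so that only Nestin-positive cells can be infected. Both groups also carried floxed *p53* alleles (p53f/f) and received RCAS Cre, so *p53* loss is shared and the groups differ in their *Ezh2* alleles (Ezh2wt against Ezh2f/f). In this model RCAS-PDGF-B drives tumor growth, and Cre acts in infected cells only, so that host cells within a tumor piece keep *Ezh2*. The study further states that Cre deleted *Ezh2* only in part in this system, so tumor cells with intact *Ezh2* may remain in the EZH2 LOF group. It also reports that staining for H3K27me3, the histone mark made by EZH2, was almost lost in *Ezh2*-deleted tumors. Those stained tumors were made with a virus that knocks down *p53*. The EZH2 LOF mice carried floxed *Ezh2* from their parents and the controls did not, so breeding and deletion cannot be told apart in this design. RNA was extracted from whole frozen tumors, depleted of ribosomal RNA and sequenced, and no source used here states the ages or sexes of the mice. The table analysed lists 3533 genes, all chosen by the authors because they differed between these very groups at a false discovery rate under 0.05. A count of genes that pass a test below therefore describes this selected table and not the whole transcriptome. *Ezh2* itself is not among the listed genes, so its level was not analysed here and the labels could not be checked on it. The tissue label could be checked in part, since the glial lineage gene *Olig2* stood between 1321 and 2727 normalized counts in all 7 tumors.

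EZH2 is the catalytic subunit of Polycomb repressive complex 2 (PRC2), which methylates lysine 27 of histone H3 (H3K27me3) and keeps developmental genes silent in cells that do not use them. PRC2 is known to settle on CpG islands, stretches of DNA rich in the dinucleotide CG that lie at many promoters. It also takes part in the silencing of imprinted genes, of which only the copy from the mother or the father is used. Its targets include many genes for transcription factors, morphogens and matrix proteins of lineages other than the one studied.

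Promoter sequences are shown first for 4 genes that were among the largest rises (*Zdbf2*, *Lin28b*, *Col11a2*, *Prph*) and 4 that were among the largest falls (*Scel*, *Spp1*, *Apod*, *Aldh1a2*), because Polycomb binding is known to be linked to CG content. Each is the RefSeq window from 250 bases before to 50 bases after a transcription start on GRCm38.p6, read 5′ to 3′ on the gene's strand, with every CG in capitals. *Zdbf2* has 2 starts on the forward strand of chromosome 1 (chr1:63200108-63200407 and chr1:63273019-63273318). The other windows lie at chr10:45470152-45470451 (*Lin28b*, reverse strand), chr17:34038888-34039187 (*Col11a2*, forward), chr15:99054924-99055223 (*Prph*, forward), chr14:103513091-103513390 (*Scel*, forward), chr5:104434861-104435160 (*Spp1*, forward, the first of 2 starts), chr16:31314759-31315058 (*Apod*, reverse) and chr9:71215539-71215838 (*Aldh1a2*, forward).
Zdbf2, upstream start: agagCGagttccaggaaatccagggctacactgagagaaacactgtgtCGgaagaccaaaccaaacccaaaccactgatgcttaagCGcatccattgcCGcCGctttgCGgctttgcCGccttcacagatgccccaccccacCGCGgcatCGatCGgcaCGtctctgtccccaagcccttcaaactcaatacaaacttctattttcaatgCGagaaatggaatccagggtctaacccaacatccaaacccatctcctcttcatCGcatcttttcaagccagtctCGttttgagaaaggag
Zdbf2, downstream start: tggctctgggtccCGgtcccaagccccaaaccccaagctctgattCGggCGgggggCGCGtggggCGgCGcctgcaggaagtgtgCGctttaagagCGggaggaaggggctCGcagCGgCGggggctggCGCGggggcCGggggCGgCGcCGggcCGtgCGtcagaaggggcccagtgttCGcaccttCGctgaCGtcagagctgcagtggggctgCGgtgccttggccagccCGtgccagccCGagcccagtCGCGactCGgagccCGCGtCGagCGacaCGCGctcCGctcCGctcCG
Lin28b: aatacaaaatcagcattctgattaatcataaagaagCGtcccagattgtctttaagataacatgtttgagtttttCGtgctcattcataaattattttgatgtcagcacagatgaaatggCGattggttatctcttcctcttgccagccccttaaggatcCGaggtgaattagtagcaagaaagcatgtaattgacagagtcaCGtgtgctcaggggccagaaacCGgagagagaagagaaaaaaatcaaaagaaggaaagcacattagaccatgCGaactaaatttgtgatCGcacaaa
Col11a2: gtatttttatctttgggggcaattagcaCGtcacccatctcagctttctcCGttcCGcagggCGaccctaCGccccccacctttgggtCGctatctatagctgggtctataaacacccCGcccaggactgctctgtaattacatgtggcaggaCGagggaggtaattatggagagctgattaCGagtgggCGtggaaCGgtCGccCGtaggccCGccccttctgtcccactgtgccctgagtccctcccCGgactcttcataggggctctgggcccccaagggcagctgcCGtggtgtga
Prph: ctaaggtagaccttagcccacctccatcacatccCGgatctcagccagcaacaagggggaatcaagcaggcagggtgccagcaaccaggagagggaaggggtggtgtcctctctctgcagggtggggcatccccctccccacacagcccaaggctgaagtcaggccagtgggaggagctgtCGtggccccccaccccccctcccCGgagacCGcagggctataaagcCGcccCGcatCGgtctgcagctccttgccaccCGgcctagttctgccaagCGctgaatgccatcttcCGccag
Scel: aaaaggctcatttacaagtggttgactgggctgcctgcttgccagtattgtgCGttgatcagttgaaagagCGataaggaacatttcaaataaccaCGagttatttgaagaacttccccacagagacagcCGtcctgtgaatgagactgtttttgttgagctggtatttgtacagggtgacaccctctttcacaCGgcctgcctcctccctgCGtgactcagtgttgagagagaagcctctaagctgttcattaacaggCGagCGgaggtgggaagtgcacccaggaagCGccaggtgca
Spp1: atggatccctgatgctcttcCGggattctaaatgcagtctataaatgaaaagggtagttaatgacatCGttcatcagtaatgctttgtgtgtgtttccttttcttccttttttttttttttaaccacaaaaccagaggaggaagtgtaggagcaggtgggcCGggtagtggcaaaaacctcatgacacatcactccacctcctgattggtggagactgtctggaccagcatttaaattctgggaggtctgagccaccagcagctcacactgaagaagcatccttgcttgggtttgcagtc
Apod: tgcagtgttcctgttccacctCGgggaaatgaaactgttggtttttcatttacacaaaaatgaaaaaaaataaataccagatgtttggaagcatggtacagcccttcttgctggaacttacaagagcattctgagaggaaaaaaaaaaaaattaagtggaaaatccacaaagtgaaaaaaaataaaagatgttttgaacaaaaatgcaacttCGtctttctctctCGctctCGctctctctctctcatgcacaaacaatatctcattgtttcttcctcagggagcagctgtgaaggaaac
Aldh1a2: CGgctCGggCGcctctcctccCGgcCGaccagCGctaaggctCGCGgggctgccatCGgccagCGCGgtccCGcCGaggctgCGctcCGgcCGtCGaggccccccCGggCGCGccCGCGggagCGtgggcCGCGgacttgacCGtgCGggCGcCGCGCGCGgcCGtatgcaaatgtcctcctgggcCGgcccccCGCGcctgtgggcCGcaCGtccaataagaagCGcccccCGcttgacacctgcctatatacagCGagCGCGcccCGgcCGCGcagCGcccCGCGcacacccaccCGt

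The 9 windows overlapped in CG count between rises and falls. Among the rises the CG count was 15 and 38 at the 2 *Zdbf2* starts, 8 at *Lin28b*, 16 at *Col11a2* and 10 at *Prph*. Among the falls it was 9 at *Scel*, 3 at *Spp1*, 4 at *Apod* and 50 at *Aldh1a2*, a count that 0.855% of all 27025 RefSeq promoter windows reach. Over all windows the median CG count was 7, and 43.9% held at least 10. Of the listed genes off chromosome 18, 81.7% had a promoter window, and here the share with at least 10 CG was 81.5% for genes that rose, 82.6% for genes that fell and 82.0% for the rest. The medians were 22 and 21 CG for rises and falls. Between 100 and 1000 normalized counts the shares were 89.0% for rises and 82.8% for falls (medians of 24.5 and 21). Above 1000 they were 92.3% for rises and 92.9% for falls. Between 10 and 100 they were 78.8% for rises and 57.9% for falls (medians of 21 and 11). Fewer than 80% of the rising genes in that range had a window (77.6%, against 81.4% of falls), so the gap there is uncertain. Below 10 there were 0 falls to compare.

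Reads in the listed genes ranged from 2763245 to 3685186 per EZH2 WT library and from 281847 to 1842891 per EZH2 LOF library, with EZH2 LOF 13 and EZH2 LOF 14 the shallowest. One read was worth 4.58 normalized counts in EZH2 LOF 13 and 0.379 in EZH2 WT 2. The authors' size factors did not overlap between the groups (2.12 ± 0.451 in EZH2 WT, n = 3, against 0.721 ± 0.496 in EZH2 LOF, n = 4, SD), with a two-sided exact permutation p = 0.0571, the smallest that this design allows. The first principal component of the log2 values held 74.9% of the variance and separated the groups. EZH2 WT 3 lay nearest to the EZH2 LOF tumors among the controls (mean correlation across genes of 0.873, against 0.828 for each of the others), and EZH2 LOF 13 lay farthest from the controls (0.799). Depth, library and genotype moved together here, and their parts in the results were not tested.

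With limma on log2(normalized count + 1) and adjustment over the 13391 genes the authors tested, 1102 listed genes were higher in EZH2 LOF (31.2%) and 1048 were lower (29.7%), 60.9% in all. The values of the groups did not overlap for 86.4% of the listed genes, as a table chosen on this contrast would give. Without EZH2 LOF 13 and EZH2 LOF 14 the counts were 182 higher and 89 lower. The direction of all 3533 genes stayed as it was without them. The count of higher genes was 458 without EZH2 WT 2, 641 without EZH2 LOF 15 and 541 without EZH2 LOF 16, and the count of lower genes was 662 without EZH2 WT 1, 357 without EZH2 WT 2 and 416 to 642 without each EZH2 LOF tumor in turn. The median log2 fold change over all listed genes was -0.33, and each list below is read beside that value and beside the shares of 31.2% and 29.7%.

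Rises and falls sat at different EZH2 WT levels among the listed genes. The EZH2 WT mean is one side of the fold change, so ranges of it sort genes by direction in part. Of 155 genes with an EZH2 WT mean under 10 normalized counts, 105 rose and 0 fell, but the lowest mean over the 7 libraries in this table was 10.03, so a gene this low in EZH2 WT had to be higher in EZH2 LOF to be listed. Between 10 and 100, 474 of 938 genes rose (50.5%) and 73 fell (7.78%). Between 100 and 1000, 507 of 2142 rose (23.7%) and 808 fell (37.7%). Above 1000, 16 of 298 rose (5.37%) and 167 fell (56.0%). Rising genes had a median EZH2 WT mean of 91.9 normalized counts and falling genes one of 454. By library, the medians of rising genes were 81.2 to 103 in EZH2 WT and 175 to 192 in EZH2 LOF. Those of falling genes were 412 to 471 in EZH2 WT and 252 to 287 in EZH2 LOF.

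**Figure D1:**
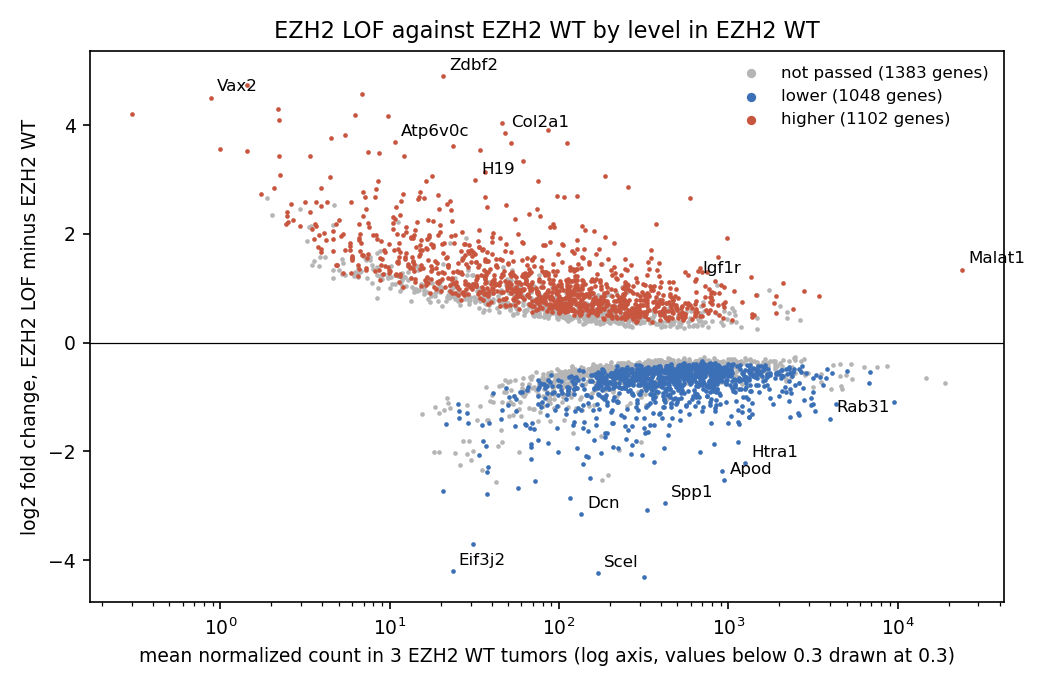
Log2 fold change of each of the 3533 listed genes (EZH2 LOF minus EZH2 WT, y axis) against its mean normalized count in the 3 EZH2 WT tumors (log x axis). Red points are the 1102 genes higher in EZH2 LOF, blue points the 1048 lower and grey points the 1383 that did not pass. Large rises such as *Zdbf2* and *Vax2* start from low levels, and the falling genes lie mostly above 100.

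Transcript structure also differed between the directions. Rising genes had a median exonic length of 6116.5 bases in 14 exon blocks and a median GC content of 52.9% in their longest annotated transcript. Falling genes had 4365.5 bases, 9 exon blocks and 46.2% GC. The gap held among genes of like level, since between 100 and 1000 normalized counts the medians were 8195 bases and 52.7% GC for rises and 4228.5 bases and 46.4% GC for falls. GC content and length thus move with the direction of change across the table, and their part in any list below was not tested.

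Cartilage genes rose as a group in EZH2 LOF tumors. Of 31 genes of the cartilage list (fibrillar and associated collagens, proteoglycans and the transcription factors of chondrocytes and bone), 16 were in the table, 13 rose and 0 fell, with a median log2 fold change of 1.70. Their median EZH2 WT mean was 52.7, a range in which 50.5% of listed genes rose. *Col2a1*, the main fibrillar collagen of cartilage (chromosome 15, 97975602 to 98004695, reverse strand), stood at 44.5, 48.5 and 50.7 normalized counts in EZH2 WT and at 545, 694, 779 and 835 in EZH2 LOF. The groups were far apart and each was tight (14.9-fold, log2 fold change 3.85 ± 0.17 SE, limma adjusted p = 7.74e-06), and *Col2a1* held the smallest adjusted p of the genes named here.

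The collagens that copolymerize with type II moved with it. *Col11a2*, a chain of type XI collagen that regulates fibril width, was at 485, 117 and 162 in EZH2 WT and at 1622, 1248, 1516 and 1800 in EZH2 LOF. Its lowest EZH2 LOF tumor lay above the highest control (log2 fold change 2.86 ± 0.39, limma adjusted p = 0.00325). The 3 chains of type IX collagen, which coats the fibrils, rose 3.73-fold (*Col9a1*), 3.98-fold (*Col9a2*) and 2.42-fold (*Col9a3*). *Acan*, the large proteoglycan that gives cartilage its stiffness, was at 194, 68.6 and 119 in EZH2 WT and at 280, 478, 538 and 496 in EZH2 LOF. *Col11a1*, already abundant in EZH2 WT, overlapped between the groups (2692 to 4685 against 4290 to 7024) and passed narrowly (adjusted p = 0.039).

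Among the regulators, *Runx2*, the master factor of bone and hypertrophic cartilage, was at 20.6, 14.4 and 13.97 in EZH2 WT and at 142, 131, 96.4 and 177 in EZH2 LOF. *Runx3*, its relative in cartilage maturation, went from 9.10 to 20.7 in EZH2 WT to 77.2 to 142 in EZH2 LOF. *Nkx3-2*, a repressor that promotes the chondrocyte fate, stood at 13.9, 4.55 and 3.10 against 41.2, 30.0, 37.5 and 41.7. *Sox9*, the factor that defines chondrocytes and also marks glial progenitors, did not pass (65.1, 77.4 and 68.8 against 137, 87.8, 65.5 and 244, adjusted p = 0.31), and its EZH2 LOF values straddled those of EZH2 WT. Without EZH2 LOF 13 and 14, 9 of the 16 passed, all upward, and the median was 2.21. In bulk tumor RNA, more cells of a kind and more RNA per cell cannot be told apart, for this and all later groups.

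Genes of other matrices went mostly the other way. Of 45 genes of interstitial, basement membrane and elastic matrix, 15 were in the table, 8 fell and 2 rose, with a median of -1.26 (3 fell and 1 rose without EZH2 LOF 13 and 14). Of the 5 that did not pass, 4 leaned up and 1 leaned down. *Dcn* (decorin), a small proteoglycan of fibrous tissue, fell from 236, 103 and 68.3 to 9.17, 12.8, 18.4 and 10.7, which is 10.6-fold lower (adjusted p = 0.00283). *Lum* (lumican), its relative, was at 96.3, 43.2 and 31.0 against 13.7, 4.28, 5.89 and 7.16. *Spp1* (osteopontin), a secreted phosphoprotein of bone and of reactive macrophages, was at 369, 372 and 526 against 27.5, 59.96, 78.0 and 62.0. All 3 genes separated the groups without overlap, as 86.4% of all listed genes did.

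*Col3a1*, the collagen of vessel walls and soft tissue, overlapped (1257, 421 and 807 against 100.8, 173, 479 and 221, adjusted p = 0.0313) and passed in 2 of 7 fits that left out a tumor. *Lama2*, a laminin chain of basement membranes, fell 3.73-fold and *Thbs2*, an inhibitor of vessel growth, fell 3.60-fold. The elastic fiber genes rose, *Eln* (elastin) from 57.3, 72.1 and 70.4 to 206, 193, 143 and 149, and *Emilin1*, which links elastin to microfibrils, by 2.46-fold. Most markers of meningeal fibroblasts moved beside the falls: 6 of 12 were in the table, 5 fell and 0 rose. Their summed level was 2013 to 2473 in EZH2 WT and 408 to 978 in EZH2 LOF. The other marker, *Ogn*, was higher but did not pass (5.01, 9.10 and 7.76 against 13.7, 25.7, 18.4 and 14.3, limma adjusted p = 0.0625). With an EZH2 WT mean of 7.29, it had to be higher in EZH2 LOF to be listed. *Dcn*, *Lum*, *Col3a1* and *Ogn* belong to both lists, and the part of meningeal fibroblasts in the result was not tested.

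**Figure D2:**
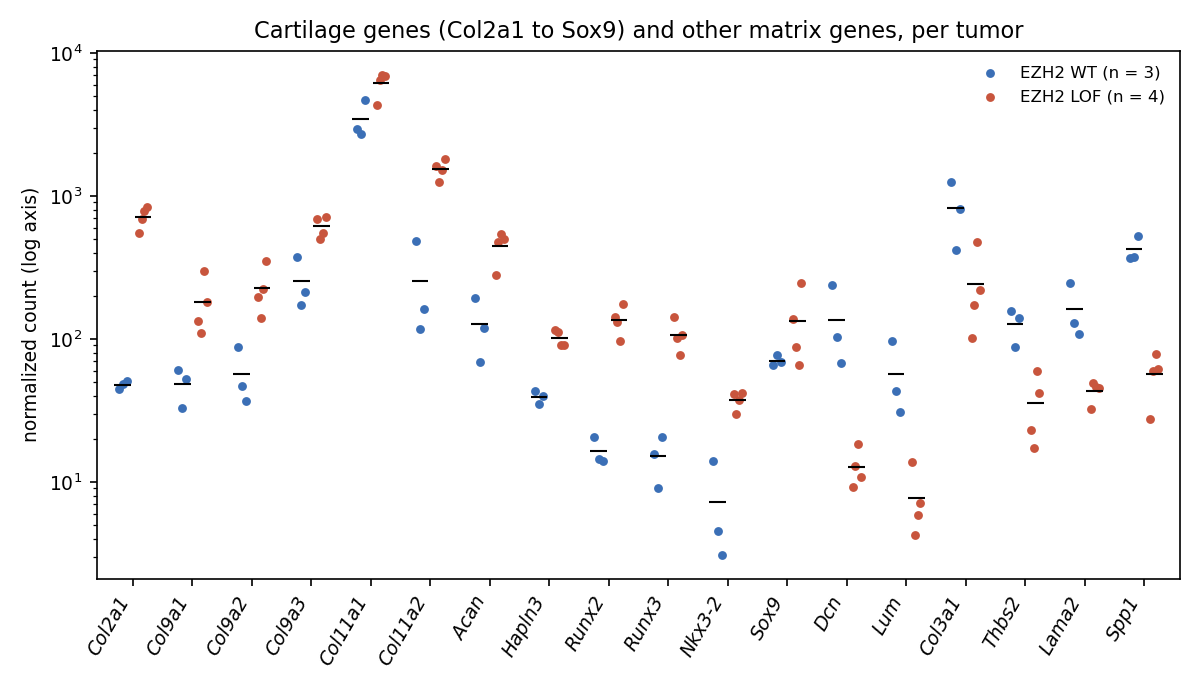
Normalized counts (log y axis) of cartilage genes, from *Col2a1* to *Sox9*, and of other matrix genes, from *Dcn* to *Spp1*, in each tumor. Blue points are the 3 EZH2 WT tumors, red points the 4 EZH2 LOF tumors and bars the group means. *Col2a1* and *Runx2* lie wholly higher in EZH2 LOF, *Dcn*, *Lum* and *Spp1* wholly lower, and *Sox9* overlaps.

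Imprinted genes were the second group with large rises. Of 45 imprinted genes on the list, 21 were in the table, 13 rose and 3 fell (median 1.30), and without EZH2 LOF 13 and 14, 9 rose and 0 fell. The share that rose was 61.9%. Their median EZH2 WT mean was 81.0, a range in which 50.5% of listed genes rose. *Asb4* and *Magel2* lay under 10 in EZH2 WT, where a gene could be listed only if higher in EZH2 LOF. *Zdbf2*, expressed from the paternal copy (chromosome 1, 63273265 to 63314576, forward strand), was the gene with the largest log2 fold change of those named here. It stood at 13.4, 32.2 and 16.04 in EZH2 WT and at 632, 559, 605 and 611 in EZH2 LOF (29.3-fold, log2 fold change 4.90 ± 0.26, limma adjusted p = 2.99e-05). The 4 EZH2 LOF tumors agreed within 31 normalized counts (SD) despite their unequal depth.

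The loci differed in how their genes moved. On chromosome 6, *Asb4*, a substrate adaptor of a ubiquitin ligase, rose from 14.5, 5.69 and 9.31 to 238, 87.8, 263 and 205 (20.2-fold), and its neighbour *Peg10*, a gene derived from a retrotransposon that the placenta needs, rose 2.58-fold. *Nap1l5*, farther along that chromosome, fell from 1047, 1264 and 971 to 513, 612, 502 and 708 (adjusted p = 0.00724). On chromosome 7, *H19*, a maternally expressed long noncoding RNA, went from 32.9, 25.4 and 37.8 to 170, 225, 345 and 336. *Cdkn1c* (p57), a cell cycle inhibitor expressed from the maternal copy, went from 11.1, 14.8 and 16.6 to 50.4, 51.4, 80.2 and 69.2. *Kcnq1ot1*, the paternally expressed noncoding RNA of the same cluster, went from 783, 588 and 718 to 1577, 1570, 1871 and 1800. Both the noncoding RNA and the gene it is known to silence in cis were thus higher in EZH2 LOF, on alleles that these counts cannot tell apart.

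In the Prader-Willi region of chromosome 7, *Ndn* (necdin), a growth suppressor of neurons, rose from 237, 219 and 176 to 793, 794, 850 and 593. *Magel2*, its neighbour, went from 1.67, 3.41 and 1.55 to 32.1, 23.6, 31.6 and 47.7. *Snrpn*, in the same region, moved the opposite way (438, 586 and 332 against 188, 261, 266 and 273, adjusted p = 0.0246). Of its 50-base words, 26.5% recur in other annotated genes, and the share was 24.9% for *Cdkn1c*, which rose. On chromosome 12, the noncoding *Meg3* and the retrotransposon-derived *Rtl1*, which are used from opposite parental copies, both rose, *Meg3* from 491, 837 and 705 to 1192, 1704, 1346 and 3234 and *Rtl1* from 25.1, 29.2 and 40.9 to 87.1, 83.5, 107 and 118. *Mirg*, a host of microRNAs in that cluster, did not pass (51.2, 55.4 and 61.6 against 96.2, 49.2, 114 and 161). *Airn* on chromosome 17, the antisense RNA of the *Igf2r* locus, went from 9.47, 17.8 and 13.97 to 41.2, 30.0, 41.9 and 32.2, and *Plagl1*, a zinc finger factor, passed with the weakest margin (adjusted p = 0.0471). *Kcnq1ot1* and *Airn* lie opposite *Kcnq1* and *Igf2r*, and no source used here states the strand setting of the counting, so reads of such pairs cannot be told apart. *Peg13* fell (adjusted p = 0.0383), and like *Begain* and *Plagl1* it passed in 1 of 7 fits that left out a tumor.

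**Figure D3:**
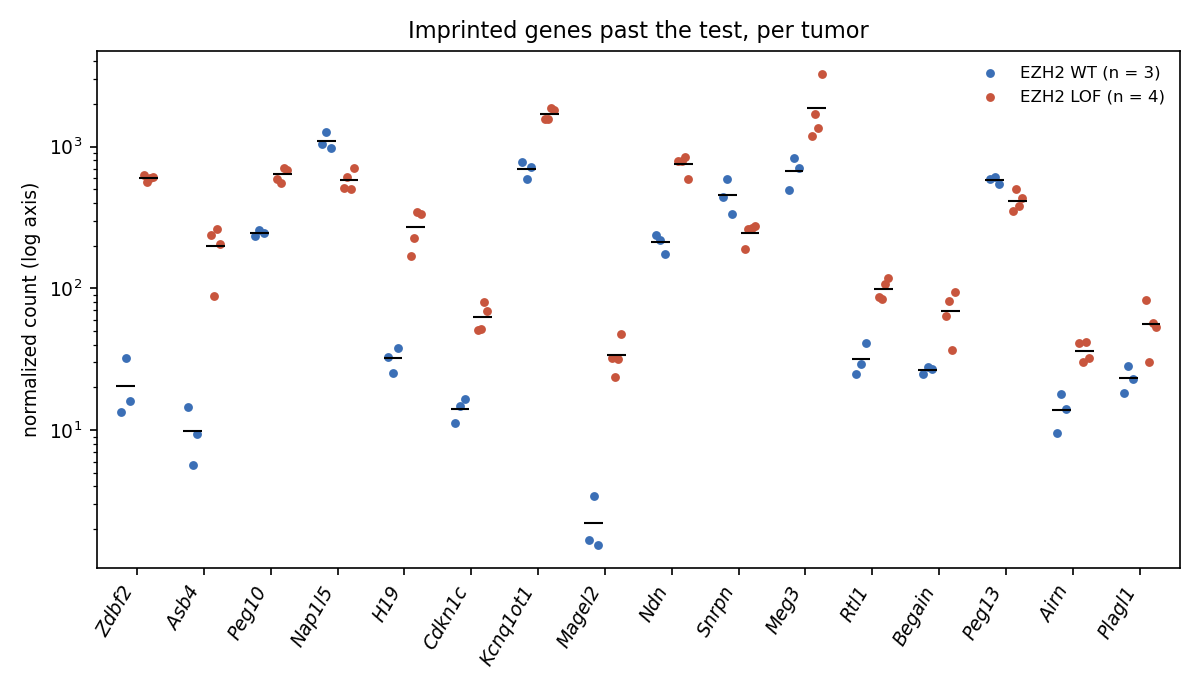
Normalized counts (log y axis) of the 16 imprinted genes that passed, in each tumor, grouped by chromosome. Blue points are the 3 EZH2 WT tumors, red points the 4 EZH2 LOF tumors and bars the group means. *Zdbf2*, *Asb4* and *Magel2* show the widest gaps, and *Nap1l5*, *Snrpn* and *Peg13* are lower in EZH2 LOF.

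The clustered protocadherins split by subcluster. These adhesion proteins give neurons a surface identity, and their genes lie in 3 neighbouring arrays on chromosome 18, alpha, beta and gamma. The table held 23 of them. All 10 alpha genes were higher in EZH2 LOF on average and 8 passed, all 8 beta genes were lower and 3 passed, and all 5 gamma genes were higher and 3 passed. Median log2 fold changes were 1.74 for alpha, -0.82 for beta and 0.83 for gamma. The alpha genes started low (median EZH2 WT mean 12.4), the beta genes at 120 and the gamma genes at 95.5.

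*Pcdhac1*, of the alpha array, was at 11.7, 9.48 and 12.9 in EZH2 WT and at 45.8, 40.7, 41.9 and 42.9 in EZH2 LOF, with no overlap (log2 fold change 1.83 ± 0.26, adjusted p = 0.00409). *Pcdhb9*, of the beta array, was at 106, 67.5 and 82.3 against 27.5, 42.8, 43.4 and 38.2. *Pcdhgc4*, of the gamma array, was at 110, 105 and 134 against 202, 265, 228 and 205. Summed over the listed members, alpha counts were 121 to 166 in EZH2 WT and 383 to 513 in EZH2 LOF, and beta counts 874 to 1338 and 546 to 680. Alpha genes share their last exons, and 52.4% to 80.8% of the 50-base words of each alpha gene recur in another annotated gene. Depending on how reads from such stretches were counted, members of an array may not be independent counts. Without EZH2 LOF 13 and 14, 3 genes passed, all of the alpha array, and the direction of all 23 stayed.

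**Figure D4:**
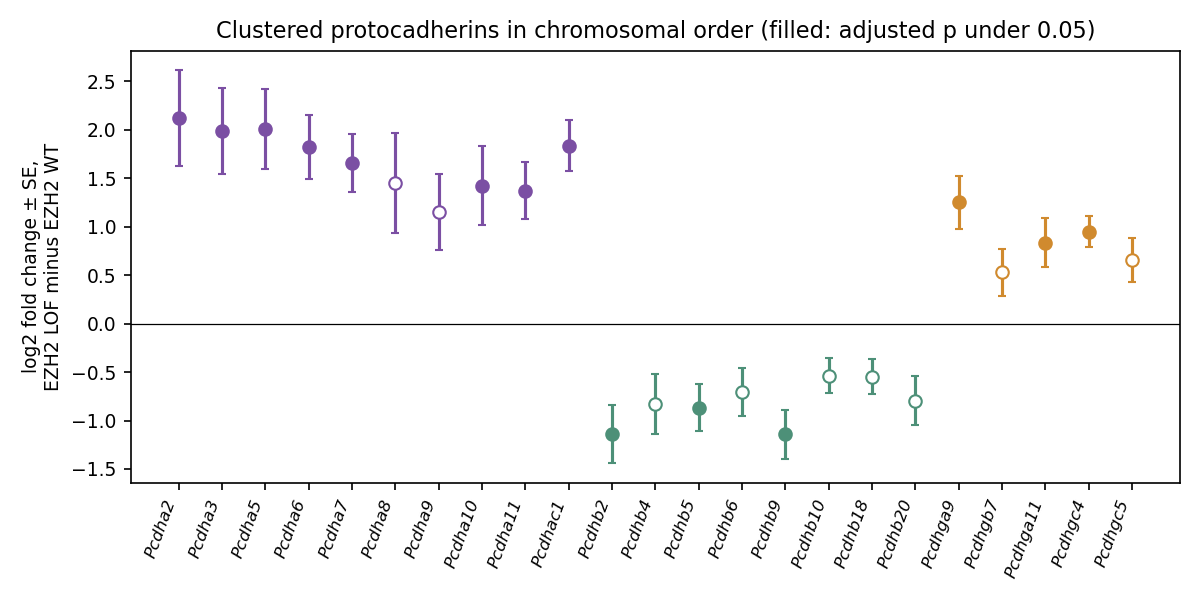
Log2 fold change (EZH2 LOF minus EZH2 WT, y axis, error bars are the SE) of the 23 listed clustered protocadherins in chromosomal order (x axis). Purple is the alpha array, green beta and orange gamma, and filled points passed at an adjusted p under 0.05. The alpha and gamma arrays lie above 0 and the beta array between them lies below.

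Genes of Wnt signalling went both ways. Of 53 pathway genes, 23 were in the table, 11 rose and 4 fell (median 0.78), and without EZH2 LOF 13 and 14, 1 rose and 2 fell. *Fzd2*, a Wnt receptor, went from 20.6, 6.83 and 7.76 to 64.2, 53.5, 69.9 and 91.8. The DNA-binding effectors *Lef1* (33.4, 21.2 and 32.1 against 64.2, 72.8, 72.8 and 97.8) and *Tcf7l2* (2.43-fold) rose, as did *Tle2*, a corepressor that binds them (2.55-fold). The secreted antagonist *Sfrp1* rose 3.42-fold, whereas its relative *Frzb* fell from 191, 145 and 98.8 to 36.7, 30.0, 31.6 and 31.0 (adjusted p = 0.00178). *Wls*, the carrier that cells need to release Wnt proteins, fell from 562, 395 and 489 to 234, 231, 252 and 222, and the ligand *Wnt7b* fell 1.70-fold. *Frzb* and *Wls* separated the groups without overlap, as 86.4% of all listed genes did. They were the 2 genes still lower without EZH2 LOF 13 and 14.

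Genes of the Hedgehog list, which takes in the Gli-similar factors, went up only among those that passed: 5 of 8 rose and 0 fell (22 on the list). Of these, 3 rises were left without EZH2 LOF 13 and 14. Their median EZH2 WT mean was 77.8, a range in which 50.5% of listed genes rose, and the activity of the pathway was not tested. *Smo*, the transducer of the signal, was at 66.3, 69.4 and 56.4 in EZH2 WT and at 128, 152, 150 and 173 in EZH2 LOF. *Cdon*, a coreceptor, was at 55.1, 54.6 and 58.5 against 110, 171, 114 and 136. The Gli-similar factors *Glis1* (5.39-fold) and *Glis3* (3.60-fold) and *Tulp3*, which carries receptors into the primary cilium (2.59-fold), rose as well. With an EZH2 WT mean of 4.99, *Glis1* had to be higher in EZH2 LOF to be listed. *Ptch1*, the receptor and a standard target of the pathway, did not pass (351, 418 and 443 against 463, 595, 525 and 513, adjusted p = 0.0803). Of 9 listed Notch genes, 5 rose and 2 fell. The receptor *Notch2* rose 1.89-fold and the ligand *Jag2* 2.03-fold, while the neural ligand *Dner* fell from 960, 931 and 656 to 385, 405, 350 and 380.

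Receptors and ligands of growth factors went in both directions, with 6 rises and 6 falls among 17 listed (median -0.58). *Igf1r*, the receptor of IGF1 and IGF2, went from 550, 601 and 783 to 1306, 1353, 1554 and 1541 (log2 fold change 1.17 ± 0.14, adjusted p = 0.00218). *Irs4*, an X-linked adaptor of these receptors, went from 2.78, 5.31 and 5.17 to 27.5, 30.0, 50.8 and 79.9. *Vegfa*, the main vessel growth factor, rose 1.93-fold and *Erbb2* rose 2.20-fold, both with adjusted p values near 0.04 (0.0382 and 0.0386). *Fgf2* fell from 131, 172 and 258 to 27.5, 68.5, 68.4 and 62.0, and the neurotrophic factor *Ptn* (pleiotrophin) fell 1.68-fold. *Pdgfra*, the receptor for the PDGF-B that drives these tumors, was at 25817, 15425 and 16206 in EZH2 WT and at 11196, 12038, 11531 and 9731 in EZH2 LOF and did not pass (adjusted p = 0.0636). *Pdgfrb*, a receptor of pericytes, passed narrowly downward (adjusted p = 0.046) and in 1 of 7 fits that left out a tumor.

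Axon guidance genes showed 13 rises and 4 falls among 23 listed (median 0.71), with 3 rises and 0 falls left without EZH2 LOF 13 and 14. *Chl1*, an adhesion molecule of growing axons, was at 249, 397 and 400 against 577, 1392, 1435 and 1290. *Sema4a*, a membrane semaphorin, was at 33.4, 31.5 and 27.4 against 87.1, 79.2, 99.3 and 116. *Sema3d*, a secreted semaphorin, moved down from 3643, 2781 and 2820 to 1219, 1323, 1771 and 1304, and the netrin *Ntn4* fell 2.11-fold. All 4 genes separated the groups, as 86.4% of all listed genes did.

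Most listed genes of splicing, chromatin and the centrosome rose. Of 50 listed splicing genes, 37 rose and 1 fell (*Hnrnpc*), with a median of 0.66. Of 32 listed histone methyltransferases and remodelers, 26 rose and 1 fell (*Hdac2*), with a median of 0.76. Of 19 listed centrosome genes, 15 rose and 0 fell (median 0.93), and of 18 listed Polycomb genes, 7 rose and 0 fell (median 0.54). Without EZH2 LOF 13 and 14, the shallowest libraries, 7 splicing, 1 chromatin, 2 centrosome and 1 Polycomb gene passed, all upward. The parts of tumor number and of these libraries in that drop cannot be told apart.

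*Snrnp70*, a protein of the U1 splicing particle, was at 703, 697 and 770 against 1535, 1510, 1348 and 1580. *Leng8*, an RNA-processing factor, was at 332, 340 and 494 against 1155, 938, 1001 and 1170. *Kmt2d*, a methyltransferase of histone H3 lysine 4 at enhancers, was at 722, 550 and 1326 against 2498, 2537, 2216 and 2421, with EZH2 WT 3 the highest control. *Setd1b*, which methylates the same residue at promoters, rose 2.84-fold, and *Dot1l*, the methyltransferase of lysine 79, rose 2.61-fold. *Phf1*, an accessory subunit that guides PRC2, went from 39.5, 34.1 and 34.7 to 82.5, 81.4, 83.9 and 95.4, and *Pcgf2*, a subunit of PRC1, rose 2.35-fold. *Crocc* (rootletin), of the ciliary rootlet, rose 3.69-fold and *Cep112* rose 3.27-fold. EZH2 WT 3 also held the highest EZH2 WT sum of the chromatin list (20136, against 14555 and 13836), and the sums in EZH2 LOF were 26367 to 27182. Median transcript GC was 52.9% for the chromatin list and 45.0% for the splicing list, and their median exonic lengths were 11172 and 7616 bases, beside 5151 bases for all listed genes.

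*Malat1*, a nuclear noncoding RNA that gathers at splicing speckles and the most abundant riser, was at 31040, 19006 and 22305 in EZH2 WT and at 53964, 61261, 61652 and 62903 in EZH2 LOF. The groups did not overlap (2.49-fold, log2 fold change 1.34 ± 0.32, adjusted p = 0.0238), but the call held in 2 of 7 fits that left out a tumor. The other large rises above 1000 normalized counts were *Col16a1*, a collagen associated with fibrils (1312, 797 and 1963 against 2621, 3167, 2903 and 3114), and *Igsf9b*, an adhesion molecule of inhibitory synapses (1.93-fold, adjusted p = 0.0428).

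The endolysosomal system was lower in EZH2 LOF. Of 28 listed lysosome genes, 15 fell and 0 rose (median -0.71). *Lamp1*, a main protein of the lysosomal membrane, was at 2555, 1745 and 1642 against 820, 1028, 1098 and 1035. *Gm2a*, the activator protein for ganglioside breakdown, was at 1621, 1364 and 993 against 527, 503, 530 and 469, and *Slc17a5*, which exports sialic acid from lysosomes, fell 2.01-fold. Of 10 listed subunits and partners of the vacuolar ATPase, the pump that acidifies these organelles, 8 fell by modest steps (*Atp6v1a* 1.53-fold, *Atp6v1e1* 1.55-fold) and *Atp6v0c* alone rose. Of 22 genes named Rab, which include the non-GTPases *Rab10os* and *Rab11fip3*, 13 fell and 2 rose. *Rab31*, a GTPase of endosomal sorting, was at 5142, 3251 and 3546 against 1407, 1518, 1532 and 1474, and *Rab3b*, of secretory vesicles, fell 3.77-fold.

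Genes of ubiquitin ligation showed 16 falls and 4 rises among 27 listed (median -0.44), among them *Ubb*, a polyubiquitin gene (825, 875 and 775 against 513, 471, 553 and 527), and *Cul5*, a cullin scaffold (1.58-fold lower). The 4 rises were *Usp36*, *Cul9* and the HECT ligases *Wwp2* (2.39-fold) and *Nedd4l* (2.23-fold). Without EZH2 LOF 13 and 14, 2 lysosome, 3 Rab, 1 vacuolar ATPase and 1 ubiquitin gene were still lower. The summed lysosome level was 17684 to 30466 in EZH2 WT and 11384 to 12994 in EZH2 LOF, and beside it the 3 listed microglia and macrophage markers (of 19) all fell, with sums of 529 to 1498 and 271 to 351. EZH2 WT 1 was the highest in both sums. The part of these cells in the lysosome result was not tested.

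Ion channels and transmitter receptors went both ways. Of 19 listed genes matched by potassium channel symbols, 7 fell and 3 rose, one of the rises being the noncoding *Kcnq1ot1*. *Kcnj16*, an inward rectifier of glia, fell from 599, 346 and 308 to 119, 111, 88.3 and 96.6, and *Kcna1*, a delayed rectifier of axons, fell 2.21-fold. *Scn7a*, an atypical sodium channel, fell 4.57-fold. Of 14 genes with symbols of GABA, glycine and glutamate receptors, 6 fell and 2 rose. *Gabrb2*, a subunit of the GABA-A receptor, was at 462, 313 and 184 against 96.2, 94.2, 78.0 and 140. *Cacna2d1*, an accessory calcium channel subunit and the target of gabapentin, went against this, from 83.5, 115 and 77.6 to 431, 413, 394 and 432 (4.54-fold, log2 fold change 2.19 ± 0.16, limma adjusted p = 0.000225). Of the 7 calcium channel genes listed, 4 rose and 2 fell.

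Genes of retinoic acid synthesis were lower in EZH2 LOF. Of 7 listed genes (23 on the list), 5 fell and 2 rose. The enzymes that make retinoic acid were *Aldh1a2*, at 72.4, 67.5 and 76.1 in EZH2 WT and 22.9, 6.42, 19.1 and 5.96 in EZH2 LOF, and *Aldh1a1*, at 653, 225 and 118 against 32.1, 14.99, 19.1 and 83.5. *Stra6*, a receptor for retinol uptake, fell with them by 3.60-fold. The nuclear receptor *Rarg* moved up from 128, 94.4 and 112 to 179, 298, 241 and 253, and *Rlbp1*, a binding protein for retinaldehyde that was outside the list, from 252, 68.6 and 91.1 to 509, 473, 536 and 568. *Aldh1a2* is also on the list of meningeal fibroblast markers, and it was the one gene still lower without EZH2 LOF 13 and 14.

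Markers of glial and neuronal types fell in EZH2 LOF in most cases. Of 11 listed genes of mature oligodendrocytes, 8 fell and 1 rose, and their summed level was 6245 to 9968 in EZH2 WT and 3754 to 4720 in EZH2 LOF. *Apod*, a lipid carrier of these cells, was at 1474, 697 and 655 against 151, 167, 158 and 132, and *Trf* (transferrin) at 1310, 1009 and 1102 against 298, 383, 491 and 512. *Myrf*, the factor that switches on myelin genes, rose instead (112, 105 and 157 against 197, 251, 383 and 279). Of 11 astrocyte genes, 8 fell and 0 rose (sums of 12267 to 18536 against 7081 to 9098). Of 7 genes of oligodendrocyte precursors, 4 fell and 1 rose, with *Olig2* 1.65-fold lower.

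All 5 listed endothelial and mural markers fell (sums of 881 to 1448 against 435 to 623). Without EZH2 LOF 13 and 14, 0 of these 5 passed, and 3 oligodendrocyte, 2 astrocyte, 0 precursor and 1 neuronal gene were still lower (limma). Of 8 neuronal genes, 5 fell and 1 rose. The one that rose was *Prph* (peripherin), an intermediate filament of peripheral neurons, from 1.67, 4.55 and 7.24 to 45.8, 53.5, 78.7 and 101.4. Its EZH2 WT mean was 4.49, and a gene under 10 there had to be higher in EZH2 LOF to be listed. No lymphocyte, red blood cell or skeletal muscle gene of the lists was in the table, so these were not analysed here. The summed markers of each type named above were lower in every EZH2 LOF tumor than in any EZH2 WT tumor. Each sum holds only markers the authors had called different, and 86.4% of all listed genes did not overlap between the groups. The part of the cell makeup in the results was not tested.

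**Figure D5:**
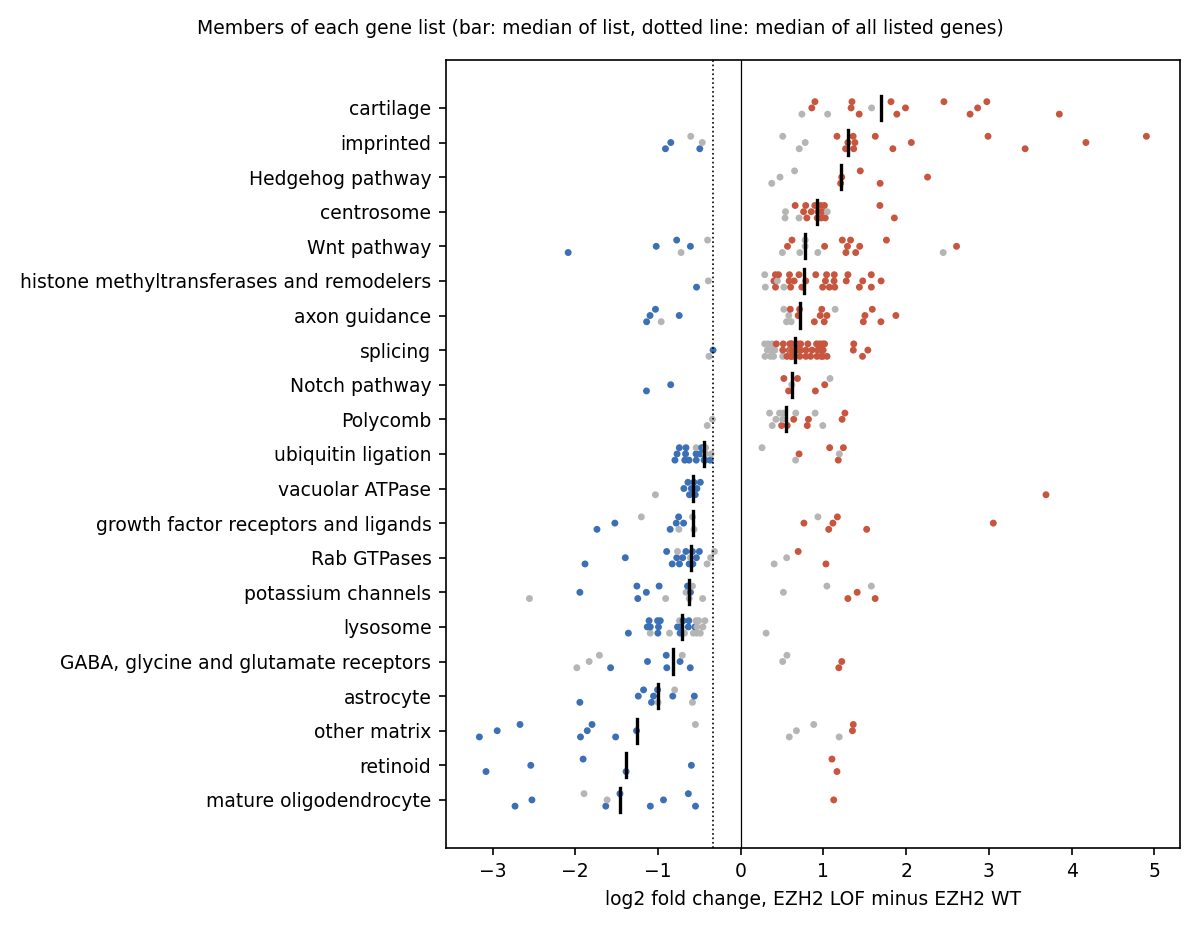
Log2 fold change (EZH2 LOF minus EZH2 WT, x axis) of the listed members of 21 gene lists (rows, ordered by median). Red points rose, blue points fell and grey points did not pass, the black bar is the median of the list and the dotted line the median of all listed genes (-0.33). Of the 21 lists drawn, cartilage (median 1.70) and imprinted genes (1.30) lie highest and mature oligodendrocyte genes (-1.46) lowest, and lists not drawn lie beyond them (small nucleolar and Cajal body RNAs at 2.54, meningeal fibroblast markers at -2.20).

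Small nucleolar RNAs and other noncoding RNAs rose. All 6 listed small nucleolar and Cajal body RNAs, which guide the modification of ribosomal and spliceosomal RNA, passed upward. Their median EZH2 WT mean was 8.44, and a gene under 10 there had to be higher in EZH2 LOF to be listed. *Snord17* was at 47.3, 23.5 and 32.1 in EZH2 WT and at 820, 405, 154 and 472 in EZH2 LOF. *Snora23* was at 6.68, 4.93 and 6.21 against 170, 19.3, 15.4 and 50.1. *Rpph1*, the RNA subunit of ribonuclease P, was at 203, 261 and 660 against 1746, 1552, 753 and 2382. EZH2 LOF 15 was the lowest EZH2 LOF tumor for *Rpph1* and all 6 small RNAs, EZH2 LOF 13 or EZH2 LOF 16 was the highest, and 1 of the 6 passed without EZH2 LOF 13 and 14. All 6 lie inside host genes, and their reads may be shared with those hosts. Of 74 listed long noncoding RNAs by annotation, 47 rose and 1 fell, with a median EZH2 WT mean of 23.9, in a range where 50.5% of listed genes rose. *Vax2os*, which overlaps the homeobox gene *Vax2* on the opposite strand, went from 5.01, 1.52 and 0 to 87.1, 27.8, 41.2 and 50.1 beside *Vax2* itself (1.11, 1.52 and 0 against 32.1, 42.8, 39.7 and 40.6).

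Several large changes fell on genes with part or most of their 50-base words in other annotated genes, where reads can be shared. Among genes named above, the share was 68.15% for *Rpph1*, 59.4% for *Trf*, 48.05% for *Ubb* and 28.3% for *Phf1*. *Atp6v0c*, the proteolipid of the vacuolar ATPase, was at 11.7, 7.59 and 12.9 against 156, 176, 130 and 132, and 10.8% of its 50-base words recur in another annotated gene. *Rps2* (30.6, 41.3 and 127 against 362, 328, 221 and 249) and *Rpl30* (30.1, 31.1 and 40.4 against 124, 156, 132 and 171) rose while *Rplp0* fell 2.49-fold, with recurring shares of 43.0%, 28.7% and 33.1%. *Eif3j2* had 151 reads in the 3 EZH2 WT tumors and 1 read, in EZH2 LOF 14, in the others, a ratio of 68.4 after scaling (95% exact counting interval 12.1 to 2719). Of its words, 91.8% recur elsewhere, so its values are uncertain, and its fitted fold change depends on the pseudocount. The interval covers counting error only.

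*Fat2*, a giant cadherin with the largest fitted fall of the named genes, was at 104, 837 and 11.4 in EZH2 WT and at 9.17, 4.28, 2.94 and 2.39 in EZH2 LOF. Its EZH2 WT values span a wide range and its call held in 1 of 7 fits that left out a tumor. *Scel* (sciellin), a protein of the cornified envelope, was steadier at 232, 163 and 111 against 4.58, 4.28, 14.7 and 10.7. Above 1000 normalized counts the largest falls were *Htra1*, a secreted protease (1492, 886 and 1384 against 197, 208, 396 and 293), *Clic5*, a chloride channel protein (3.67-fold), and *Igfbp2*, a binding protein of insulin-like growth factors (2.89-fold). *Lin28b*, a repressor of let-7 microRNAs in embryonic cells, was at 8.35, 10.2 and 2.07 against 202, 171, 145 and 138. *Pla1a*, a phospholipase, passed narrowly downward (adjusted p = 0.0471) and in 2 of 7 such fits.

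By chromosome, X-linked genes leaned down. Of 134 listed genes on the X chromosome, 63 fell (47.0%) and 18 rose (13.4%), against 29.0% and 31.9% of the 3396 listed autosomal genes, with medians of -0.55 and -0.28. Among X-linked genes with an EZH2 WT mean of 100 to 1000, 56 of 96 fell and 4 rose, beside 808 and 507 of 2142 listed genes in that range. X-linked genes had a median transcript GC of 43.1%, against 49.4% for autosomal genes. Without EZH2 LOF 13 and 14, 2 X-linked genes passed downward and 7 upward, while all 134 kept their direction. These shares are a description, and the part of GC content or of the sex of the mice was not tested.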

How the data were processed

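RNA from 3 EZH2 WT and 4 EZH2 LOF tumors was compared, grouped by the sample labels. Per the labels and the study's methods, rRNA-depleted stranded libraries were read as single 50-base reads, and the submitters' processing notes name FastQC, Trim Galore, STAR (mm10), HTSeq and DESeq2, without versions. The authors deposited only genes they called, 3533 IDs on 3553 lines, as a signal (counts divided by a size factor), beside their own log2 fold changes, scores and p-values, none reported here (their p-values served only to recover that 13391 genes entered their adjustment).

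Values were tested with limma 3.58.1 on log2(value + 1) with a trended prior in R 4.3.3, adjusted (Benjamini-Hochberg) over 13391 genes, with unlisted genes counted as not passing. All values were whole reads within 0.001, so edgeR 4.0.16 on recovered reads was an alternative, as were other pseudocounts, size factors and left-out tumors. No source states that each library came from its own mouse, so the spread behind each p may be technical.

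Members and lists were chosen with earlier results of these data known. Genes were named by size (the 3 largest non-overlapping rises and falls in each of 4 ranges of EZH2 WT mean, interferon, antigen presentation and respiratory genes left out), by up to 4 passing members of a list in each direction, or as members of a described pathway; *Rlbp1* came from the first rule. Some genes that these rules name are not reported here. Gene positions, lengths and GC came from GENCODE M21 (3532 of 3533 IDs matched) and promoters from RefSeq. Copies were sought among GENCODE transcripts.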

Additional observations from a re-analysis of the deposited data

Results flagged for a closer look

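Among the 4 EZH2 LOF tumors, 1 value stood far from the other 3 for 8 of the 219 genes named or plotted, and chance alone marks about 1 in 20. EZH2 LOF 13, the shallowest library, was the lowest for *Matn4* (1343 normalized counts, others 1639 to 1687), *Snrpn* (188, others 261 to 273), *Fgf2* (27.5, others 62.0 to 68.5), *Gfra1* (669, others 814 to 842), *Chl1* (577, others 1290 to 1435) and *Cacng5* (27.5, others 100 to 111). EZH2 LOF 16 was the highest for *Kif7* (188, others 137 to 138). EZH2 LOF 14 held the single *Eif3j2* read of the group (2.14, the others at 0).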

How the results depend on the processing

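Of the 219 genes named or plotted, 200 passed in the reported fit, 131 in all 7 fits that left out a tumor and 77 without EZH2 LOF 13 and 14, and none turned in direction under any alternative run. Pseudocounts of 0.5 and 5, a constant prior variance, recomputed size factors and edgeR on recovered reads kept both counts within 1.5 times (edgeR 1130 higher and 1125 lower, constant prior 989 and 761), and a minimum mean of 10 removed no gene. Recomputed size factors moved the median log2 fold change by 0.0404 and turned no gene. Adjusting over the listed genes alone gave 1694 higher and 1790 lower, since fewer genes entered the adjustment. Leaving out 1 tumor gave 458 to 1048 higher and 357 to 876 lower, with the lowest counts without EZH2 WT 2, and leaving out EZH2 LOF 13 and 14 gave 182 higher and 89 lower, with fewer tumors in the fit. Of the passing genes, 696 held in all 7 such fits (415 higher, 281 lower). Of 78 counts of list members, 57 moved by over 1.5 times without EZH2 LOF 13 and 14, 36 without EZH2 WT 2 and 4 with edgeR. No paired analysis was possible because the groups compared share no replicate numbers. In EZH2 LOF 13, where 1 read is worth 4.58 normalized counts, values near 0 rest on few reads.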

Other observations

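Hindbrain positional genes were near the floor in EZH2 WT. *Hoxa3*, a homeobox gene of the posterior hindbrain, was at 13.4, 8.34 and 3.10 normalized counts in EZH2 WT and at 50.4, 23.6, 27.2 and 29.8 in EZH2 LOF. *Hoxc4*, of the spinal cord, was at 2.78, 3.41 and 0 against 32.1, 12.8, 13.2 and 16.7. Both passed upward with limma (adjusted p = 0.0221 and 0.0159) and no other Hox gene was in the table. Their EZH2 WT means were 8.27 and 2.07, and a gene under 10 there had to be higher in EZH2 LOF to be listed. *Hoxa3* passed in 4 of 7 fits that left out a tumor and *Hoxc4* in all 7. Neither passed without EZH2 LOF 13 and 14 (limma adjusted p = 0.116 and 0.098).

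Of 5 listed genes of BMP and TGF-beta signalling, 3 rose and 2 fell. *Acvr2b*, an activin receptor, rose by a log2 fold change of 0.85 and *Ltbp3*, which binds latent TGF-beta, by 0.84. *Id2*, an inhibitor of differentiation induced by BMP signals, was at 448, 575 and 451 in EZH2 WT and at 261, 325, 271 and 255 in EZH2 LOF, and *Bmpr1a*, a BMP receptor, fell 1.38-fold. *Klf9*, a gene induced by glucocorticoids, fell 3.00-fold (427, 1037 and 922 against 284, 287, 240 and 249), and *Klf6* fell 1.74-fold. *Ccng1* (cyclin G1), a target of p53, fell 1.62-fold. *Tgfb1* rose 1.91-fold (adjusted p = 0.0417) and passed in 1 of 7 fits that left out a tumor.

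Cytosolic ribosomal protein genes went both ways, with 5 rises and 6 falls among 20 listed by symbol (*Rpl7l1*, which is not a ribosomal protein, included). The 5 that rose had low EZH2 WT values, such as *Rpl30* and *Rps2*.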
